A study of Mus musculus with 2 samples.

Results

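Imprinted genes are expressed mainly from the allele inherited from one parent. A set of 37 of them outside the Prader-Willi locus, in 18 clusters or single loci, was followed in the suprachiasmatic nucleus (SCN), the hypothalamic clock of mammals. A gene entered by its symbol alone, and 31 of the 37 symbols were found among the 24229 genes of the deposited expression table. Of these, 29 averaged 50 or more normalised counts over both libraries and are called measured here. H19 and Slc22a18 fell below that level, and Rian, Mirg, Airn, Kcnq1ot1, Phlda2 and Peg10 are not listed under these names.

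Both groups were wild-type mice of the strain C57BL/6, aged 68 postnatal days, and had been entrained to a normal T-cycle (NT) or a short one (ST), a T-cycle being a light-dark schedule of set period. The groups of 8 mice had lived in constant darkness for 7 days beforehand, were on their schedule for 4 weeks, and were sampled at circadian time 4 h, after 5 further days of darkness. The SCN was dissected from slices of 250 µm, and each group is represented by 1 library of polyadenylated RNA. How many mice a library pools, the periods of the T-cycles and whether nuclear or cytoplasmic RNA was taken is not stated in the sources used here. By its title the study concerns light, circadian behaviour and DNA methylation, and imprinted genes are the textbook case of genes whose activity depends on DNA methylation.

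The libraries held 19476800 (ST) and 24790727 (NT) counts. Both libraries held reads of SCN markers: Vip had 4988 counts in ST and 7419 in NT, Avp 7334 and 8009, Six6 1524 and 2048, and Lhx1 1277 and 1675. These counts do not show how much neighbouring tissue the dissections held. With no replicates there is no estimate of biological spread and no test, so each difference compares 2 libraries, not 2 conditions. Intervals in parentheses are exact 95% Clopper-Pearson intervals of the ST/NT ratio. They cover counting error only, since each group has 1 library. PCR copies of a molecule cannot be recognised in these reads, so even the counting error may be larger than the intervals show. The mice are of an inbred strain and the table gives 1 value per gene, so the parental allele named for each gene is textbook background and was not measured.

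Imprinted genes tend to lie in clusters that share an imprinting control region, a stretch of DNA methylated on a single parental chromosome in the germ line and kept so in the body. Long non-coding RNAs, retrogenes inserted in introns of other genes, growth regulators and neuronal signalling genes recur among them. The brain expresses an unusually large number of imprinted genes, and several are described in the hypothalamus for roles in feeding, growth and maternal behaviour.

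Most imprinted genes had nearly the same level in both libraries, and 3 were at least 1.2-fold lower in ST. Igf2, the fetal growth factor, was 1.97-fold lower, and Cdkn1c, the cell-cycle inhibitor p57, 1.79-fold lower. Asb4, which recruits substrates to a ubiquitin ligase, was 1.21-fold lower, just past that size. No measured member was at least 1.2-fold higher, a size reached by 3.36% of all 14343 measured genes. At least 1.2-fold lower were 3 of the 29 (10.3%), against 6.1% of all measured genes. No member reached 2-fold, against 0.0209% of all measured genes that were at least 2-fold higher and 0.23% that were at least 2-fold lower. The median log2 ratio of ST to NT was 0.00 for the members (range -0.98 to 0.20) and 0.00 for all measured genes. Within 0.1 of 0 on the log2 scale lay 22 of the 29 (75.9%), against 60.9% of all measured genes and 80.3% of those averaging at least 1000 normalised counts. The last share is not a like comparison, since the 29 include members below that mean.

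Small differences on the higher side were frequent. The interval lay above 1 for 8 members, namely Meg3, Rtl1, Igf2r, Grb10, Zrsr1, Rasgrf1, Zdbf2 and H13, which is 27.6% against 7.81% of all measured genes. It lay below 1 for 4, Igf2, Cdkn1c, Asb4 and Nnat, 13.8% against 10.2%. Members are abundant, which narrows their intervals: among the 19 with a mean of at least 1000 the interval lay above 1 for 7 (36.8%), against 12.8% of all genes at that depth, and below 1 for 1, against 14.1%. Of the 8 higher genes, 7 have fractional counts in the deposited table, as when a read is divided between features, and are described here as sharing reads. Members that share reads numbered 16, with the interval above 1 for 7 and below 1 for 2, against 8.26% and 9.02% of all measured genes that share reads. Among the 13 members with whole counts Rasgrf1 alone had an interval above 1, against 7.47% of genes with whole counts, and 2 had one below 1, against 11.1%.

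**Figure D1:**
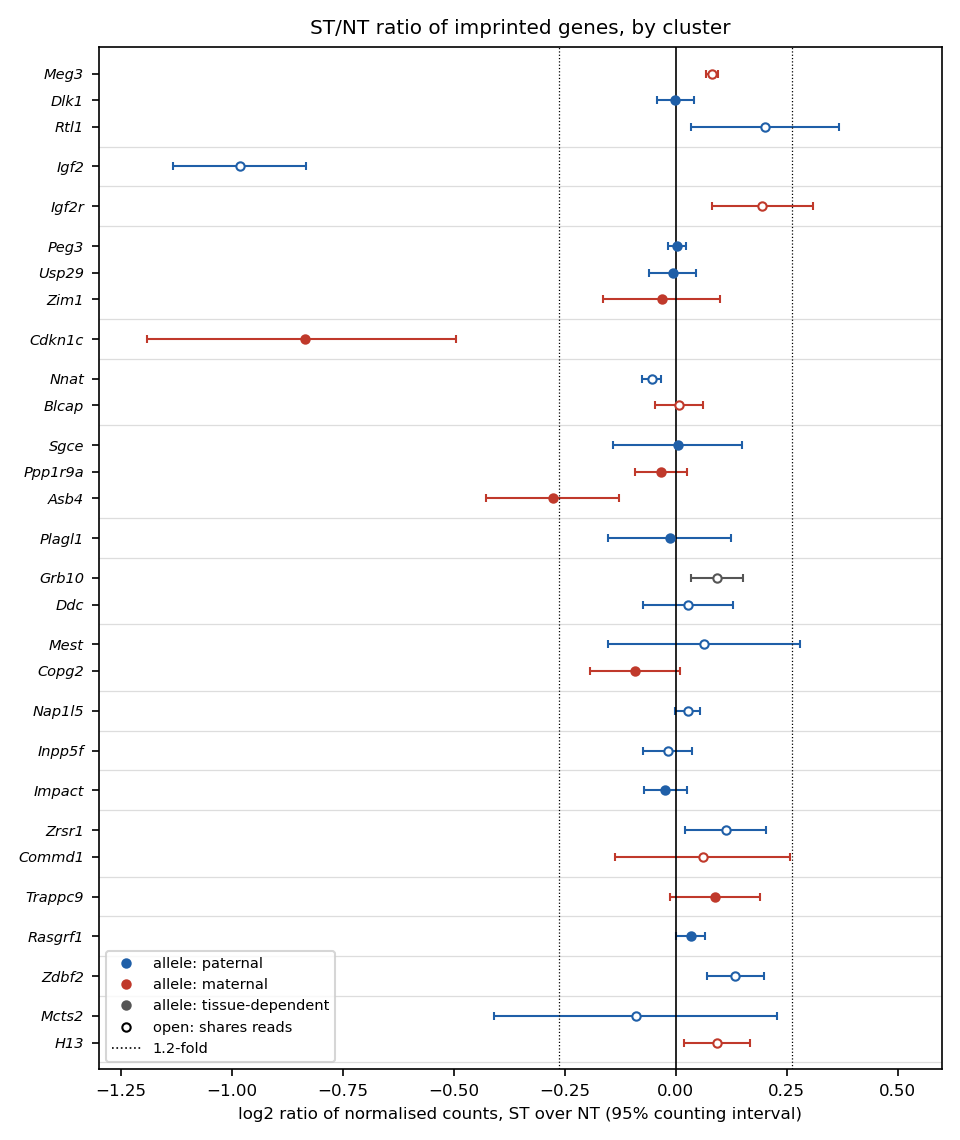
The log2 ratio of normalised counts, ST over NT, is plotted for each of the 29 measured imprinted genes, grouped by cluster; bars are 95% counting intervals, colours give the textbook expressed allele, open symbols mark genes that share reads and dotted lines mark 1.2-fold. Igf2 at -0.98 and Cdkn1c at -0.84 lie far to the left of all others, and Asb4 at -0.28 is the only other gene beyond the dotted line.

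Levels per gene length spanned more than 2 orders of magnitude. In RPKM (reads scaled by gene length and library size), 7 of the 29 measured members exceeded 100 in the NT library, whereas 4.04% of all measured genes did. The highest were Nap1l5, a nucleosome-assembly retrogene, with 1157 RPKM in ST and 1126 in NT, and Nnat, the small membrane protein neuronatin, with 982 and 1011. They ranked 30 and 31 among the 24229 listed genes in NT. Impact, a translational regulator that restrains the kinase GCN2, followed with 309.6 and 312.0 RPKM, then the non-coding RNA Meg3 with 199 and 187 and the Notch-like membrane protein Dlk1 with 182 and 181. Rasgrf1, an exchange factor that couples calcium to Ras, had 153 and 149 RPKM, and the zinc finger protein Peg3 141 and 140.

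Those levels depend on the length the authors divided by. The RPKM and RPM columns imply 796 bases for Nap1l5, whereas the exons of the GENCODE vM1 annotation cover 1893 bases. Divided by the annotated exon lengths instead, the deposited RPM values reversed the order of the leading pair. Nap1l5 came to 474 RPKM in NT and Nnat to 934. Impact dropped from 312.0 to 91.0 and Dlk1 from 181 to 76.0 by the same step, while Usp29, a ubiquitin protease family member, went from 33.3 to 98.2. For Meg3, Peg3 and Rasgrf1 both lengths were nearly equal. Reads were not recounted over the annotated exons. Where the lengths differ, counts and length may cover different sequence, so the rescaled values are not levels over those exons. The ratio of ST to NT is unaffected, since length cancels.

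Of the other 22 measured members, 14 lay between 10 and 100 RPKM in NT and 8 below 10. Blcap, the host gene of Nnat, led this part with 96.8 RPKM in ST and 95.6 in NT. At the low end were Rtl1, a retrotransposon-derived gene, at 5.61 and 4.84, Cdkn1c at 2.83 and 5.01, and the zinc finger transcription factor Plagl1 at 5.37 in both libraries. Together the listed members took 1.17% of all counts in ST and 1.14% in NT.

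**Figure D2:**
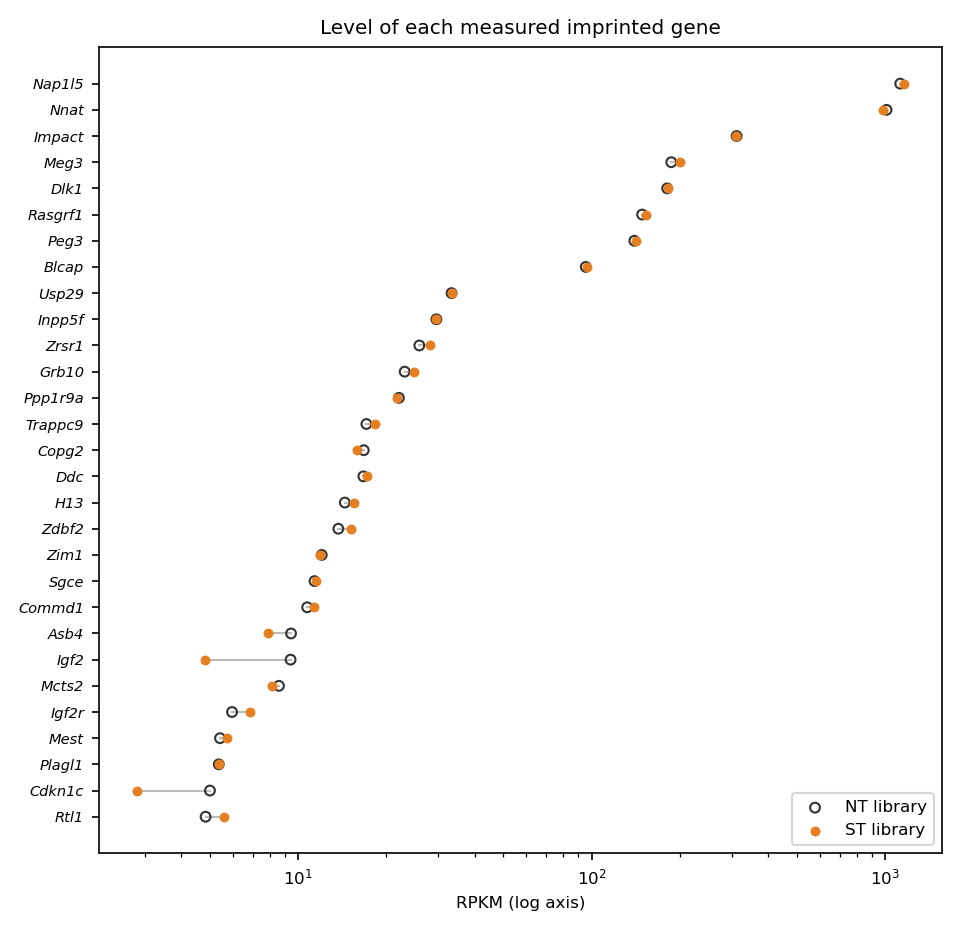
The RPKM of each measured imprinted gene is drawn on a log axis, with open circles for the NT library and filled circles for the ST library. The circles of most genes coincide from Nap1l5 at 1126 RPKM in NT downward, and Igf2 (4.82 in ST, 9.43 in NT) and Cdkn1c (2.83 and 5.01) are visibly apart.

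Growth regulators held the 2 largest differences. Igf2, paternally expressed by its textbook label, had 515 ST counts against 1283 NT counts and was 1.97-fold lower in ST (1.78 to 2.19). Whether its reads came from 1 allele or both was not measured. Igf2 lies at chr7:149836673-149852721 on the minus strand of mm9 (ENSMUSG00000048583) and shares reads. The rows that overlap it, the antisense locus AC013548.2 and mmu-mir-483, had at most 2 counts in either library. The authors' deposited table gives Igf2 an adjusted p of 1.4e-10, from the same pair of libraries and so with no replicate error. Igf2r, the receptor that clears IGF2 and sorts lysosomal enzymes and is maternally expressed in most tissues, had 1184 and 1305 counts and was 1.15-fold higher (1.06 to 1.24). The log2 ratio of Igf2 was lower than that of Igf2r by 1.18, with a Woolf 95% interval of the difference, Igf2 minus Igf2r, from -1.36 to -0.99.

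Cdkn1c, maternally expressed, had 101 ST counts against 228 NT counts and shares no reads, which makes it 1.79-fold lower (1.41 to 2.28). It lies at chr7:150644255-150646901 on the minus strand (ENSMUSG00000037664). In the authors' deposited table its adjusted p was 0.193, and that of all members other than Igf2 and Cdkn1c was 1. The partner of Igf2 across their shared control region, the maternal non-coding RNA H19, had 0 counts in ST and 5 in NT; a count of 0 allows up to 3 counts, so no fold is given. Slc22a18, a transporter gene beside Cdkn1c, had 5 and 8 counts.

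Asb4 is known from hypothalamic neurons and is maternally expressed. Its counts were 602 (ST) and 921 (NT), 1.21-fold lower in ST (1.09 to 1.35), with no shared reads, at chr6:5333386-5383022 on the plus strand (ENSMUSG00000042607). Among its cluster neighbours, Sgce, the epsilon-sarcoglycan gene of myoclonus dystonia, had 689 and 867 counts and a log2 ratio of 0.00, and Ppp1r9a, which encodes the actin-binding protein neurabin, 4224 and 5452 counts and -0.03. Asb4 had the lower log2 ratio of each pair, by 0.28 against Sgce (interval 0.08 to 0.49) and by 0.25 against Ppp1r9a (0.09 to 0.40).

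The 200 bases upstream of Igf2 and Asb4 are shown because both genes are among the members at least 1.2-fold lower in ST. Each window starts at the outermost annotated start and holds no annotated exon. Both are read from the NCBIM37 (mm9) genome, 5′ to 3′ on the strand of the gene, from chr7:149852722-149852921 (Igf2) and chr6:5333186-5333385 (Asb4). Capitals would mark TGCCGC, the hexamer bound by the imprint-protecting factor ZFP57, or CCATNTT, a core of YY1 sites, on either strand; neither window holds one.
Igf2: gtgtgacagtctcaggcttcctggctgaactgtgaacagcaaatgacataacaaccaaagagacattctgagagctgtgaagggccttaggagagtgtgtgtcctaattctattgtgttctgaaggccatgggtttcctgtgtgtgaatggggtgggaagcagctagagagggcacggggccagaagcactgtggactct
Asb4: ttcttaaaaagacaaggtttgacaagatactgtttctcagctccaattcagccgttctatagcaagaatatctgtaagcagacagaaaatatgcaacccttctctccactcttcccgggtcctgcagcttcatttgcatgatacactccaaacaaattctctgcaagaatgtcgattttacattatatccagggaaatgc
Igf2 has further start sites inside the gene, which are not shown.

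Marker genes of other cell types were also lower in ST, in particular those of the meninges, where Igf2 is known to be expressed in adult brain. All 10 measured meningeal markers were lower, 7 of them by at least 1.2-fold, against 6.1% of all measured genes. Their median log2 ratio was -0.75 (range -1.75 to -0.11), and their summed level was 21.8 RPKM in ST and 31.5 in NT. Among them were Fmod with 80 counts in ST and 340 in NT, Ogn with 33 and 102, Col1a1 with 93 and 275, and the most abundant by count, Aebp1, with 993 and 1492. The other 4 of the 14 markers were below the count filter. The 12 endothelial and mural markers were all lower as well, with a median of -0.33 and summed levels of 93.7 and 116.7 RPKM. The ratios of Igf2 (-0.98) and Cdkn1c (-0.84) lie within the range of the meningeal list and below that of the endothelial list (-0.42 to -0.24). Their part in the difference of Igf2 and Cdkn1c was not tested, and in bulk tissue fewer cells of a type cannot be told apart from less RNA per cell.

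Choroid plexus, another known source of Igf2, left few markers to compare. Of its 10 listed markers 3 were measured, with log2 ratios of -0.22 to 0.14. The most abundant of the 3 was Enpp2, with 3171 counts in ST and 4677 in NT. The 7 below the filter went both ways: Ttr, its defining transcript, had 18 and 48 counts, Kcne2 3 and 7, Otx2 1 and 2, Folr1 32 and 24, Aqp1 9 and 8, Slc4a5 2 and 1, and Sostdc1 18 and 19. Of these 7, Ttr alone had an interval clear of 1, at a normalised ratio of 0.47 (0.26 to 0.83). Oligodendrocyte and microglial markers had medians of -0.30 (12 of 12 lower) and -0.27 (10 of 10 lower). Astrocyte markers had a median of -0.08, with 7 of 10 lower. General neuronal markers were at -0.05 over 9 genes and SCN markers at -0.07 over 12.

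For Asb4, whose expression is known from neurons of the arcuate nucleus just behind the SCN, arcuate peptides were added after the values had been seen. Pomc had 144 counts in ST and 966 in NT (log2 ratio -2.41), Cartpt 234 and 352 (-0.25), Npy 62 and 92 (-0.23), and Agrp 12 and 17, below the filter. All 3 measured genes were lower in ST. The part of arcuate tissue in the ratio of Asb4 was not tested.

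**Figure D3:**
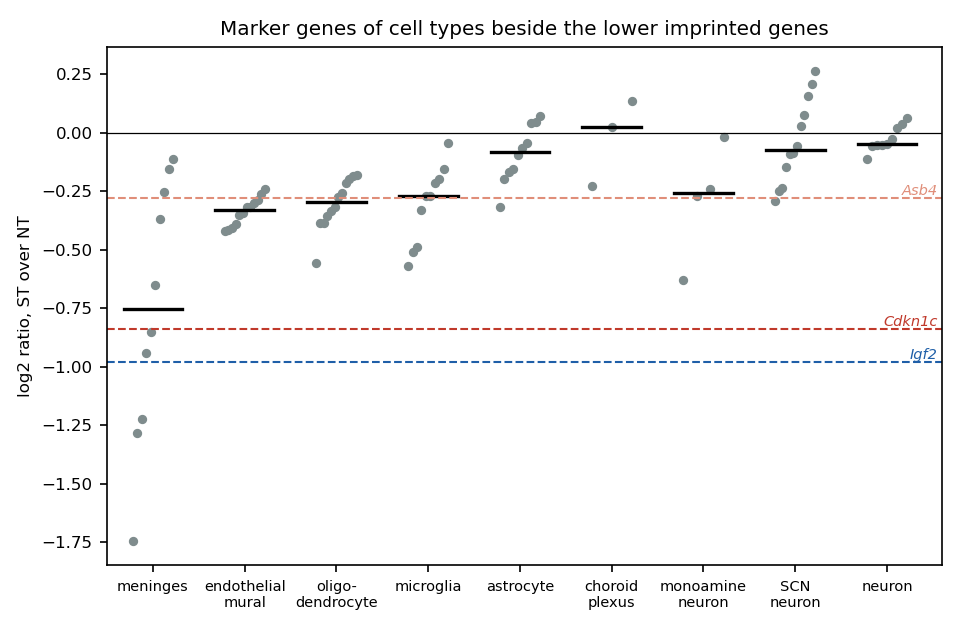
Points are the log2 ratios, ST over NT, of the measured genes of each marker list and black bars the list medians; dashed lines give Igf2 (-0.98), Cdkn1c (-0.84) and Asb4 (-0.28). Igf2 and Cdkn1c lie among the meningeal points, whose median is -0.75, and Asb4 lies near the medians of the endothelial, oligodendrocyte, microglial and monoamine neuron lists.

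The Dlk1-Meg3 cluster on chromosome 12 holds paternally expressed protein-coding genes and maternally expressed non-coding RNAs. Meg3 was the most counted member, at 70242 (ST) and 83773 (NT) counts, 1.06-fold higher in ST (1.05 to 1.07), and it shares reads. Dlk1, 80309 bases away, had 8439 and 10658 counts, a log2 ratio of 0.00 (ratio interval 0.97 to 1.03). Rtl1 had 572 and 628 counts and the highest log2 ratio of any member, 0.20, or 1.15-fold (1.02 to 1.29). It shares reads, and its span holds 6 microRNA-named loci on the opposite strand, each with at most 2 counts. No other listed row overlaps Rtl1, so its counts may include reads of the opposite strand. Sense and antisense RNA over this span cannot be told apart here. The log2 ratio of Dlk1 was lower than that of Meg3 by 0.08 (Dlk1 minus Meg3, -0.13 to -0.04), and that of Rtl1 did not differ from that of Meg3 beyond counting error (difference 0.12, -0.04 to 0.28). Rtl1 also had a higher log2 ratio than Dlk1, which carries the same paternal label, by 0.20 (0.03 to 0.37).

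Rian and Mirg, the non-coding RNAs downstream of Meg3 that carry small nucleolar RNAs and microRNAs, are not listed under their own names, but rows of the table lie inside their annotated spans. In the span of Rian in GENCODE vM1 (chr12:110842155-110899919, plus strand) lay 16 same-strand rows, 12 of them named SNORD113, with 432 summed counts in ST and 555 in NT. Their ratio was 0.98 (0.86 to 1.12). A single SNORD113 locus that shares reads supplied 283 and 388 of these counts, and without it the ratio was 1.13 (0.90 to 1.41). In the span of Mirg (chr12:110973191-110987665) 9 microRNA-named rows, among them mmu-mir-410, summed to 111 and 113 counts, a ratio of 1.24 (0.95 to 1.63). These are reads of polyadenylated RNA over the small-RNA loci, not mature microRNAs or snoRNAs, and each interval held 1.

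The Peg3 domain was nearly equal in both libraries. Peg3, paternally expressed, had 36640 counts in ST and 46144 in NT, a log2 ratio of 0.00 (ratio interval 0.99 to 1.02). Usp29, read in the opposite direction from a start 161 bases away, had 5013 and 6357 counts and a log2 ratio of -0.01 (0.96 to 1.03). The maternally expressed zinc finger gene Zim1 had 841 and 1085 counts and a ratio of 0.98 (0.89 to 1.07). All 3 have whole counts. The log2 ratios of Peg3 and Usp29 differed by 0.01 (-0.05 to 0.07), for a pair known to share a promoter region.

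Sgce has the same arrangement with Peg10, a retrotransposon-derived paternal gene that is not listed: 101 bases separate their annotated starts. The bases between these starts are shown for both pairs, on the plus strand of mm9, because each is the promoter region of paternally expressed genes; they come from chr7:6683133-6683293 and chr6:4697205-4697305. Capitals mark TGCCGC.
Peg3-Usp29: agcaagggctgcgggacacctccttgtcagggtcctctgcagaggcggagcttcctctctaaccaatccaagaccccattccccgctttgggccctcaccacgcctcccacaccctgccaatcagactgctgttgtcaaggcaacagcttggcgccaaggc
Sgce-Peg10: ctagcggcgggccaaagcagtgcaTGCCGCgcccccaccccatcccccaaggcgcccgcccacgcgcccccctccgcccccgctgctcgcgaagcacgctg
The Sgce-Peg10 stretch holds 13 CpG and 1 TGCCGC, a hexamer found on either strand in 7.50% of upstream windows of 101 bases over 14316 measured genes. The Peg3-Usp29 stretch holds 5 CpG and no match to TGCCGC or CCATNTT, which 10.7% and 6.41% of windows of 161 bases hold.

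Genes nested in other genes, retrogenes among them, were compared with their hosts. Nnat had 32316 counts in ST and 42350 in NT, a ratio of 0.96 (0.95 to 0.98), and its host Blcap 4958 and 6228 counts and a log2 ratio of 0.01 (0.97 to 1.04). Nnat is paternally expressed and Blcap largely maternal in brain; the log2 ratio of Nnat was lower by 0.06, with the interval of Nnat minus Blcap from -0.12 to -0.0034. Nap1l5 had 17938 and 22225 counts and a ratio of 1.02 (0.999 to 1.04), with its host, the ubiquitin ligase gene Herc3, at 1.06 (0.997 to 1.13). Zrsr1, a splicing factor retrogene, had 1806 and 2108 counts, 1.08-fold higher (1.01 to 1.15), and its host Commd1, an endosomal sorting and copper-handling gene, 391 and 473 counts, a ratio of 1.04 (0.91 to 1.195).

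Mcts2, a retrogene of the translation factor family MCT-1, had 146 counts in ST and 196 in NT, a ratio of 0.94 (0.75 to 1.17). Its host H13, the signal peptide peptidase, had 2727 and 3227 counts and was 1.07-fold higher (1.01 to 1.12). All of these nested pairs share reads, so the division of reads between nested gene and host is uncertain. The difference in log2 ratio between retrogene and host held 0 within its interval for Zrsr1 against Commd1 and for Mcts2 against H13. The 200 bases upstream of Mcts2, in an intron of H13 at chr2:152512571-152512770, plus strand, are shown for their TGCCGC matches, in capitals.
Mcts2: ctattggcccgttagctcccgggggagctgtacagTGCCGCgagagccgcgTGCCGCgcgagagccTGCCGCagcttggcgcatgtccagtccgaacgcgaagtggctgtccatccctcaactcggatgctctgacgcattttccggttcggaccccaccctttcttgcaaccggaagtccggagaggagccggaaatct
This window holds 3 matches and 21 CpG. Windows with 3 or more matches made up 0.147% of those of 200 bases, and 12.3% held at least 1; of the members 6 of 29 did, Copg2, Mcts2, Meg3, Nap1l5, Plagl1 and Sgce. A match is a description of the letters, not of a bound site.

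Rasgrf1, which lies upstream of Ras and ERK in neurons, had 14041 counts in ST and 17312 in NT, a ratio of 1.02 (1.001 to 1.05). Grb10, an adaptor that restrains insulin and IGF receptors and is expressed from the paternal allele in neurons but the maternal one elsewhere, had 4420 and 5231 counts and was 1.07-fold higher (1.02 to 1.11). Ddc, the decarboxylase that makes dopamine and serotonin, had 1448 and 1793 counts, a ratio of 1.02 (0.95 to 1.09). Of other markers of monoamine neurons 4 were measured, with log2 ratios from -0.63 for the dopamine transporter gene Slc6a3 (71 and 139 counts) to -0.02 for Hdc, histidine decarboxylase (544 and 694 counts, interval 0.88 to 1.11). Whether the log2 ratio of Ddc differs from theirs was not tested.

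Among the remaining members, Zdbf2, a paternally expressed gene of the zinc finger DBF type, had 3743 counts in ST and 4303 in NT and was 1.10-fold higher (1.05 to 1.15). The trafficking gene Trappc9, maternal in brain, had 1474 and 1749 counts, a ratio of 1.06 (0.99 to 1.14). Copg2, a coat protein of the secretory pathway, had 1368 and 1839 counts (0.94, 0.87 to 1.01), and Mest, its paternally expressed tail-to-tail neighbour, 324 and 391 (1.05, 0.90 to 1.21). The ratio of Impact was 0.98 (6037 and 7743 counts), that of Inpp5f, an inositol phosphatase, 0.99 (4768 and 6092), and that of Plagl1 0.99 (761 and 969). Each of these 3 intervals held 1. Airn, the non-coding RNA that silences Igf2r on the paternal chromosome, is not listed by that name. The row with its Ensembl identifier, ENSMUSG00000078247, had 1 count in ST and 2 in NT, and all 3 rows inside its annotated span 3 and 6.

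**Figure D4:**
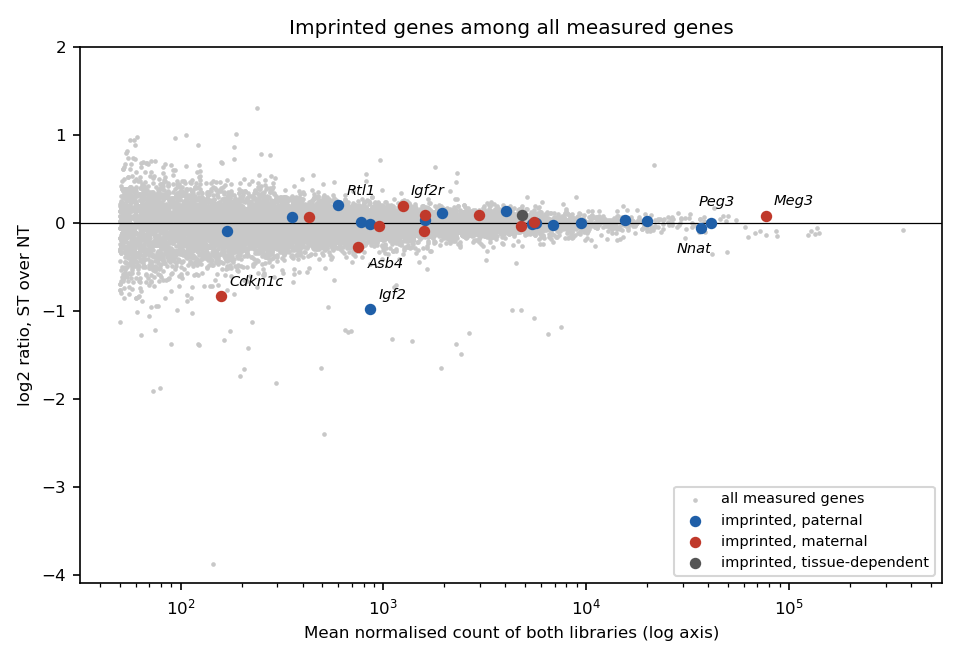
Each grey point is a measured gene, with its mean normalised count on a log axis and its log2 ratio, ST over NT; coloured points are the 29 measured imprinted genes by textbook allele. Most coloured points lie near the zero line, and Igf2 (-0.98) and Cdkn1c (-0.84) lie below the bulk of genes of like abundance.

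The 17 measured paternal genes had a median log2 ratio of 0.00, with 9 higher and 8 lower, and the 11 measured maternal genes one of 0.01, with 6 higher and 5 lower. Intervals lay above 1 for 4 paternal (23.5%) and 3 maternal genes (27.3%), against 7.81% of all measured genes, and below 1 for 2 of each (11.8% and 18.2%), against 10.2%. Both groups hold a gene far below the rest, Igf2 under the paternal and Cdkn1c under the maternal label. The labels are textbook ones and were not measured in this tissue, and the allele used can differ between tissues, as for Grb10. The maternal median was -0.09 over members that overlap no other listed gene.

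Of 30 measured genes on a list of further imprinted genes and cluster neighbours, none was at least 1.2-fold higher, against 3.36% of all measured genes, and 3 (10%) were at least 1.2-fold lower, against 6.1%, with a median of 0.02. Their interval lay above 1 for 4 (13.3%) and below 1 for 6 (20%), against 7.81% and 10.2% of all measured genes. The 3 genes at least 1.2-fold lower were Dcn, a matrix proteoglycan of fibroblasts and meninges, with counts of 142 and 282, Axl, a receptor tyrosine kinase, with 1259 and 1932, and Th, tyrosine hydroxylase, with 397 and 604. Gnas, the imprinted stimulatory G protein and the most abundant of the list, was at 0.08 (45632 and 54417 counts). At the Prader-Willi locus Ndn was at 0.66, while the other 9 measured genes lay between -0.05 and 0.12. No measured gene of the present set had an interval that reached the ratio of Ndn, whose own interval was 1.55 to 1.61.

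Factors that keep imprints had a median of 0.02. Of 11 measured genes, none passed 1.2-fold, against 3.36% of all measured genes on the higher side and 6.1% on the lower. The largest log2 ratio was that of Eed, a Polycomb subunit, at -0.19 (305 and 439 counts, 0.76 to 1.02). The most counted was the histone methyltransferase gene Ehmt2 at 0.02 (4019 and 5010 counts). Only Trim28, the co-repressor that ZFP57 recruits, had an interval clear of 1 (3604 and 4252 counts, 1.02 to 1.12). Zfp57 itself had 381 counts in ST and 443 in NT, with an interval of 0.94 to 1.25. In the IGF pathway, the binding protein gene Igfbp2 was lower, with 60 counts in ST and 200 in NT (log2 ratio -1.39), and Igfbp4 with 146 and 240 (-0.38). Irs2, an insulin receptor substrate, was higher with 1097 and 1150 counts (0.27), as was Igf2bp3 with 59 and 57 (0.38, interval 0.89 to 1.91, which held 1). Of the 10 measured genes of this pathway 2 were at least 1.2-fold higher and 2 at least 1.2-fold lower, against 3.36% and 6.1% of all measured genes. The most abundant member of the pathway, Igfbp5, was at -0.11.

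The upstream CpG content of the members lay near that of all measured genes. In the 250 bases before the deposited start, their median observed over expected CpG was 0.60, against 0.69 for 14316 measured genes, and the median GC content 58% against 58.8%. With at least 55% GC and an observed over expected CpG of at least 0.65 counted as CpG-rich, 11 of the 29 (37.9%) qualified, against 45.6% of all measured genes. The 11 comprised 6 paternal and 5 maternal genes. The deposited start of a gene need not be the start used in this tissue, so these windows may miss promoters inside a gene, as in Igf2.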

How the data were processed

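Per the submitters' processing notes, CASAVA 1.8.2, TopHat 1.2, DESeq and build mm9 were used, with no role or order given; which counter was used is not given in the sources used here. Deposited by the authors were estimated counts (RC), not whole (tolerance 1e-06) for 42.4% of rows in ST and 43.1% in NT, with RPKM and RPM values, and a comparison of both libraries as fold change, its log2, p-value and adjusted p-value, per the file headers. Another 3 columns of means were not used.

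Counts were rounded and divided by size factors from the median of ratios (ST 0.89, NT 1.12). Log2 ratios used a pseudocount of 0.5, folds none, and genes averaging at least 50 normalised counts were kept. Differences between 2 genes have Woolf intervals. Upstream windows were read from NCBIM37; 99.5% of 23161 matched identifiers overlapped the GENCODE vM1 gene, and all 31 listed members matched by symbol. Members and lists were chosen with earlier results of these data known. Every member is named; of other lists, up to 4 measured genes by size of ratio and the most abundant. Outside this rule, arcuate peptides and the choroid plexus markers below the filter are named, chosen after their values were seen. Alternatives were total-count and TMM scaling (edgeR 4.0.16), filters of 10 and 200, a pseudocount of 5, whole counts, no overlap, RPKM ratios, and 1.5-fold and 2-fold rules. Calculations were tested on simulated data. The sequence upstream of Cdkn1c is not reported here.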

Additional observations from a re-analysis of the deposited data

How the results depend on the processing

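No paired analysis was possible because ST and NT have 1 library apiece, so leaving out a replicate could not be tried either. With only the 13 measured members that have whole counts, the interval lay above 1 for 1 and below 1 for 2. With only the 11 that overlap no other listed gene, it lay above 1 for 1 and below 1 for 2, and the maternal median was -0.091. Fewer genes enter both settings. At 2-fold, 0 members were lower. The other 54 values of counts (within 1.5 times) and medians (within 0.091) stayed close to those reported. All 196 values of single genes stayed within their counting interval, but many of them could not have moved. The filters of 10 and 200, whole counts and no overlap only select genes and leave each ratio as it was. With the filter of 10 the measured members were the same, so its counts and medians could not move either. Only scaling, the pseudocount and the RPKM ratios could change a single value, and scaling shifts all genes alike. Scaling by total counts shifted all log2 ratios by 0.012, and the median over members ranged from -0.02 to 0.02. At this depth, by counting error alone, the interval of Cdkn1c ran from 1.41-fold to 2.28-fold lower in ST. That of Meg3 ran from 1.05-fold to 1.07-fold higher in ST.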
